A study of Mus musculus with 8 samples.

Results

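The Hox cluster genes are the 39 mouse homeobox genes of the Hoxa, Hoxb, Hoxc and Hoxd clusters. They were taken as every row of the expression files whose gene name is Hox followed by a cluster letter and a paralog number, which gives 39 of 24849 rows: 11 Hoxa genes on chromosome 6, 10 Hoxb genes on chromosome 11, 9 Hoxc genes on chromosome 15 and 9 Hoxd genes on chromosome 2. Their level was measured by RNA-seq of polyadenylated RNA, as FPKM (mapped fragments scaled for transcript length and for the size of the library), in 8 samples. The samples are MPI-II mouse embryonic stem cells (mESCs) of the 129S2/SvPas strain, either wild type (WT) or Pcgf5-/-, collected before differentiation (day 0) or on day 6 in N2B27 medium, a medium without serum that lets mESCs become neural cells. Each of these 4 groups holds 2 samples, numbered #1 and #2. The Pcgf5-/- cells were made with TALENs cutting in the second exon of Pcgf5, selected with puromycin and G418 and grown from picked colonies. Which colony, or how many, gave the sequenced samples is not stated in the sources used here, so a property of a clone cannot be told apart from the loss of Pcgf5. All cells were kept before differentiation on inactivated embryonic fibroblasts (feeder cells), with serum, LIF and the 2i inhibitors. The study calls its samples independent biological samples, without saying in the sources used here whether #1 and #2 came from separate cultures or colonies, and the p-values below measure the spread between these samples.

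Hox genes code for homeodomain transcription factors that give cells their position along the head-to-tail axis. Within a cluster the genes lie in the order in which they act: low paralog numbers (anterior genes) mark the hindbrain and neck, and high numbers (posterior genes) mark the trunk, limbs and tail. The clusters open from their anterior end, under retinoic acid, Wnt and Fgf signals and the Cdx factors, and HOX proteins bind DNA together with the TALE cofactors of the PBX and MEIS families. In mESCs all 4 clusters are held silent by the Polycomb complexes, and PCGF5 is a subunit of a variant of Polycomb repressive complex 1, which ubiquitylates histone H2A. The comparison of genotypes therefore bears on how these target genes behave when PCGF5 is missing.

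Pcgf5 itself stood at 5.18 and 3.63 FPKM in the WT samples of day 0 and at 9.16 and 5.06 on day 6, against 1.28 and 1.84 in the Pcgf5-/- samples of day 0 and 0.669 and 0.457 on day 6, so the groups did not overlap on either day. Between 16919 and 17673 genes had a value above 0 per sample. The files hold no fragment counts, so the depth behind a value is read here from the lower and upper bounds that Cufflinks gives for each FPKM. Of the 39 genes, 25 had a mean FPKM over 1 in at least 1 group and were tested. The other 14 (Hoxa6, Hoxa9, Hoxa11, Hoxa13, Hoxb5, Hoxb6, Hoxb13, Hoxc5, Hoxc11, Hoxd1, Hoxd8, Hoxd10, Hoxd11 and Hoxd12) had no group mean above 0.943 FPKM. The genes of chromosomes 6 and 11, which carry Hoxa and Hoxb, stood higher in Pcgf5-/- samples as a whole: the median difference between the genotypes, on the log2(FPKM + 1) scale, was 0.41 on chromosome 6 and 0.48 on chromosome 11 at day 0, and 0.37 and 0.38 at day 6. On chromosome 15 it was 0.10 at day 0 and -0.01 on day 6, on chromosome 2 it was 0.09 and -0.04, and the medians of the 17 autosomes other than 6 and 11 ran from 0.04 to 0.12 at day 0 and from -0.06 to 0.03 on day 6. The day 6 differences of the anterior Hoxa and Hoxb genes named below are therefore also given relative to their chromosome.

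The promoters of the genes that differed between the genotypes on day 6 are shown first, together with that of Hoxb1, because the region upstream of a Hox gene is where Polycomb complexes and HOX-PBX-MEIS complexes act. RefSeq promoters of 300 bases (250 before the transcript start to 50 after it, build GRCm38.p6) were at hand for 22 of the 39 genes, as 24 promoters. Among the 6 genes called on day 6 these include Hoxa2 (chr6:52164782-52165081, minus strand), Hoxc4 (chr15:103034145-103034444, plus strand), Hoxd3 (chr2:74711743-74712042, plus strand) and Hoxd4 (chr2:74721728-74722027, plus strand), and Hoxb1 lies at chr11:96365508-96365807 on the plus strand. Each is printed 5′ to 3′ on the strand of its gene, and capitals mark a match to the PBX-HOX motif TGATNNAT or the MEIS motif TGACAG on either strand. The 2 motifs share no letters where both occur.
Hoxa2: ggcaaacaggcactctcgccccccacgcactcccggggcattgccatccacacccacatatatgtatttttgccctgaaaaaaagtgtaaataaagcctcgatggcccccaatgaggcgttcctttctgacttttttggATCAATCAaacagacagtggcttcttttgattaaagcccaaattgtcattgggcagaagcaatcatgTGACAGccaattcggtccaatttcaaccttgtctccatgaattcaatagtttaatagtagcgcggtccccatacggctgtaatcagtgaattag
Hoxb1: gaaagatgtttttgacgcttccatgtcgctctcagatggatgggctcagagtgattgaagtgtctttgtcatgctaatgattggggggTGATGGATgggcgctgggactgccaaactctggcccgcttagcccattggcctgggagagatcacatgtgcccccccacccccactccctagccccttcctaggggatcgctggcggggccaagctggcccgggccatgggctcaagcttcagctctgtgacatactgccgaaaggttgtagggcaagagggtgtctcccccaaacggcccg
Hoxc4: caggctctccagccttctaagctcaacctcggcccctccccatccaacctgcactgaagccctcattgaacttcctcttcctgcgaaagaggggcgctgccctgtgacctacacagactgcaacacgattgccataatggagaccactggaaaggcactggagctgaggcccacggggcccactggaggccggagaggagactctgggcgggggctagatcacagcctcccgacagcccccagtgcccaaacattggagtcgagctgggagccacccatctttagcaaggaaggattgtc
Hoxd3: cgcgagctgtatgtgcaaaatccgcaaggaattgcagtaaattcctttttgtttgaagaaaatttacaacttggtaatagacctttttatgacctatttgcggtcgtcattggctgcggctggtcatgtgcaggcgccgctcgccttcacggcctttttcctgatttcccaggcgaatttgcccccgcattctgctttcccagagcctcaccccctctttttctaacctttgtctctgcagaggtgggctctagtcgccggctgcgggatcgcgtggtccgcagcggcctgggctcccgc
Hoxd4: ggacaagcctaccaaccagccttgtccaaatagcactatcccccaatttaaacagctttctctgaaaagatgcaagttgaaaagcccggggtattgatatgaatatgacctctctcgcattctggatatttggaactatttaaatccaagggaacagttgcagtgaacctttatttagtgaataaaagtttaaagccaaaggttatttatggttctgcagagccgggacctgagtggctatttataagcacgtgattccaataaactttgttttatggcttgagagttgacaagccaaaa
The PBX-HOX motif occurred in 4 of the 24 Hox promoters, those of Hoxa2, Hoxb1, Hoxb8 and 1 of the 2 Hoxd11 promoters, and in 8.85% of the 32851 mouse promoters of the same length. The MEIS motif occurred in 2 of 24, those of Hoxa2 and Hoxa3, and in 19.2% of all promoters. In Hoxa2 the PBX-HOX match begins 111 bases and the MEIS match 44 bases before the transcript start, and in Hoxb1 the PBX-HOX match begins 162 bases before it. The printed promoters of Hoxc4, Hoxd3 and Hoxd4 hold neither. The 24 Hox promoters carried a median of 14.5 CpG dinucleotides in 300 bases (range 4 to 45), against 7.0 in all promoters, CpG density being a known feature of Polycomb targets.

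In WT cells on day 6, 13 Hox genes had a mean over 1 FPKM. Of these, 11 were anterior genes (paralogs 1 to 4) and the others were Hoxa5 and Hoxb8, and the order of levels was led by the paralog 2 genes. Paralog 4 was classed as central when the analysis was planned, and is counted as anterior in this text. FPKM is a value per length and can be compared between genes. Hoxb2, which acts in hindbrain segments and facial motor neurons, stood at 28.3 and 41.7 FPKM, and Hoxa2, which sets the identity of the second pharyngeal arch, at 27.2 and 38.3. These values overlap, so their order is not beyond the spread. Hoxa3 followed at 12.1 and 11.4, below both paralog 2 genes without overlap. By mean, Hoxb4 (11.7 and 4.58), Hoxc4 (6.96 and 3.06) and Hoxd3 (5.40 and 2.82) stood below it. So did Hoxb1 (1.48 and 6.03) and Hoxb3 (4.50 and 2.67). These genes overlapped or nearly so, and neighbours in this order cannot be separated. Hoxb4 in WT #1 also lay above Hoxa3 in WT #2. Hoxa4 (3.07 and 1.72), Hoxa5 (3.12 and 1.68) and Hoxd4 (2.99 and 1.71) formed the lower end. Hoxb8 had a mean of 2.23 FPKM, but it rests on WT #1 alone (4.07 against 0.40 in #2). Of the 16 posterior genes (paralogs 9 to 13), 0 had a mean over 1 FPKM in either genotype on day 6.

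**Figure D1:**
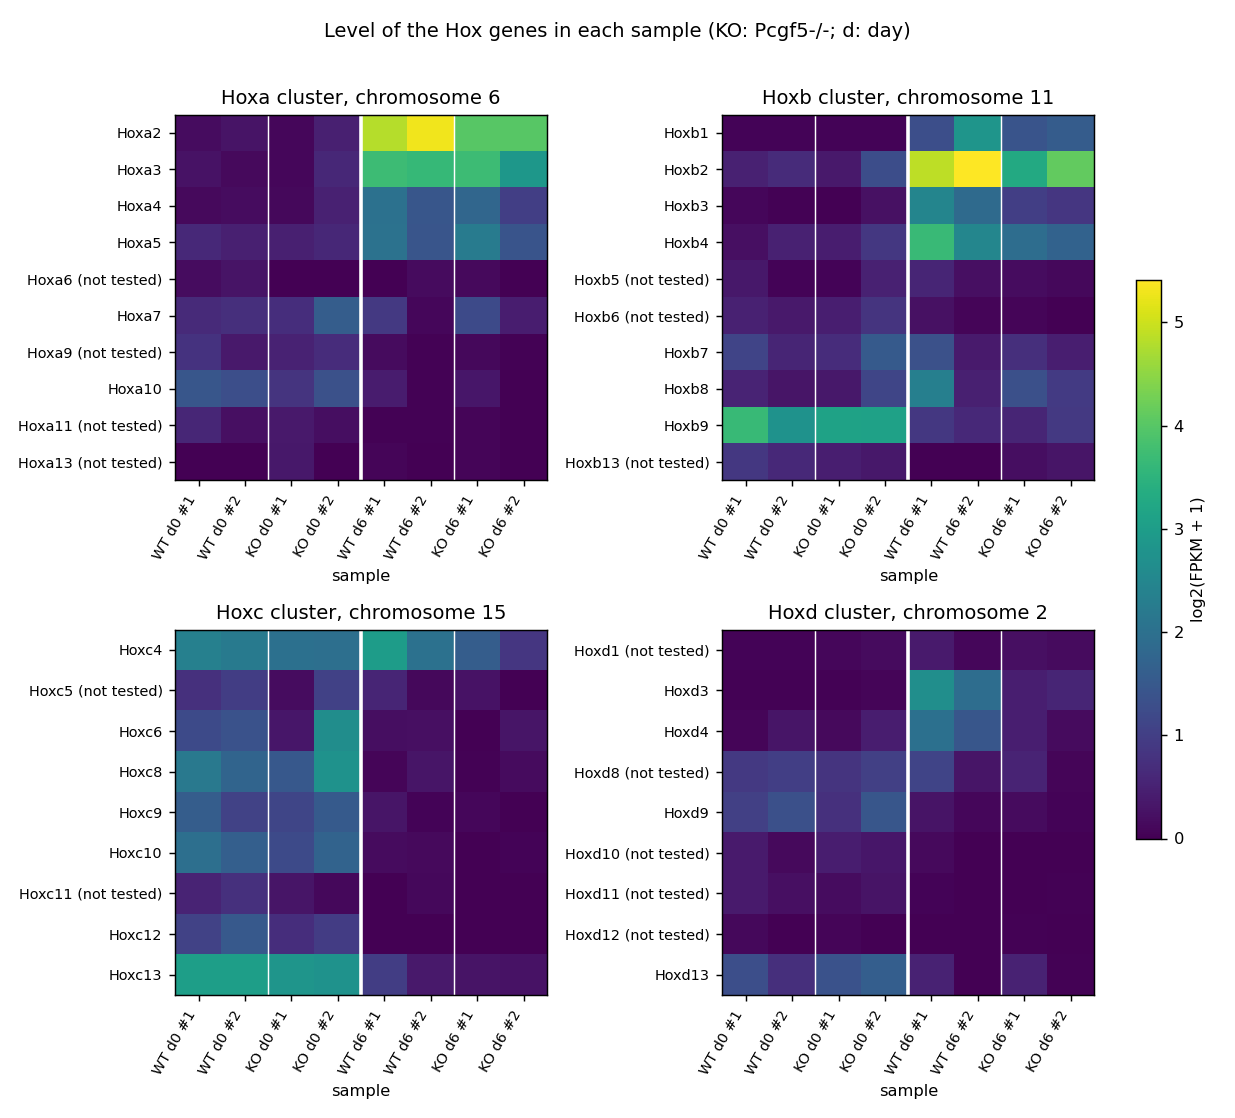
Level of the Hox genes (1 of the 39 is left out), as log2(FPKM + 1), in the 8 samples, with 1 panel for each cluster and the genes in order of paralog number. On day 6 the bright rows are the anterior genes, with Hoxb2 (28.3 and 41.7 FPKM) and Hoxa2 (27.2 and 38.3) highest in WT, while at day 0 the brighter rows are Hoxb9 and Hoxc13.

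The highest Hox levels moved from posterior to anterior genes between day 0 and day 6 in WT cells. Of the 25 genes tested, 11 rose (among them Hoxa2 to Hoxa5, Hoxb1 to Hoxb4, Hoxd3 and Hoxd4) and 8 fell (Hoxa10, Hoxb9, Hoxc8, Hoxc9, Hoxc10, Hoxc12, Hoxc13 and Hoxd9) in limma with Benjamini-Hochberg adjustment over all 13214 genes tested. Over all genes, 34.2% rose and 16.2% fell in this comparison, so a change over the 6 days was common. The Hox calls divided by position: each gene that rose has a paralog number of 1 to 5, and each that fell one of 8 to 13. The genes that fell passed the minimum of 1 FPKM through day 0 only, and the named genes that rose through day 6 only. The filter thus let them in through the day on which they were high, which favours a change in that direction. The counts over all 39 genes below do not use this minimum. Without overlap between the days, 11 of the 25 were higher on day 6 and 10 were lower, where 49.5% and 28.1% of all genes tested were. Among all 39, 11 of the 12 genes of paralogs 1 to 4 were higher in this way, all except Hoxc4, and 19 of the 27 genes of paralogs 5 to 13 were lower. No share over all genes without the minimum was computed for these counts. Some of the genes in them, such as Hoxd1 and Hoxa6, were near 0 on both days. The counts over all 39 are thus a description only.

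Hoxa2 went from 0.13 and 0.21 FPKM to 27.2 and 38.3 in WT, a change of 4.83 ± 0.22 on the log2(FPKM + 1) scale (SE, n = 2 per group, limma adjusted p = 5.98e-06). Hoxb2 went from 0.41 and 0.58 to 28.3 and 41.7, a change of 4.56 ± 0.37. Hoxa3, a gene of the third pharyngeal arch and the neck, went from 0.20 and 0.10 to 12.1 and 11.4, a change of 3.48 ± 0.30. Hoxa2, Hoxb2 and Hoxa3 thus started near 0 and reached the highest mean values of any Hox gene in WT on day 6. Hoxb1, which marks the fourth hindbrain segment, rose from 0.04 and 0.03 to 1.48 and 6.03. Hoxd1, of the same paralog number, stayed at or below 0.31 FPKM in all samples and was not tested.

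At day 0 the highest Hox levels in WT were those of the posterior genes Hoxb9 and Hoxc13, followed by Hoxc4 (4.15 and 3.71 FPKM). Hoxb9, a gene of the thoracic trunk, stood at 11.6 and 5.79 FPKM in WT at day 0 and at 0.85 and 0.53 on day 6, a change of -2.46 ± 0.29 (limma adjusted p = 0.000309). Hoxc13, known for its role in hair and nails, stood at 7.21 and 7.15 against 0.99 and 0.28, a change of -2.35 ± 0.23. Hoxc8, a gene of thoracic and brachial identity, stood at 3.54 and 2.37 against 0.05 and 0.24, and Hoxc10, a gene of the lumbar region, at 2.97 and 2.12 against 0.12 and 0.10. Hoxc12 was listed at 0 in all 4 samples of day 6. The summed FPKM of the 16 posterior genes was 32.4 and 23.6 in WT at day 0 and 3.48 and 1.17 on day 6, and in Pcgf5-/- cells 22.1 and 25.5 against 1.95 and 1.45.

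Markers of fibroblasts, the cell type of the feeder layer, moved in the same direction. All 13 listed markers (among them Col1a1, Col1a2, Postn and Prrx1) were measured, 0 of them at 0, and their summed FPKM was 328 and 207 in WT and 206 and 669 in Pcgf5-/- at day 0, against 31.3 and 45.8 in WT and 18.1 and 20.2 in Pcgf5-/- on day 6. From day 0 to day 6, 10 of 13 fell in each genotype, where 16.2% of all genes fell in WT and 10.4% in Pcgf5-/-. Within day 0, Pcgf5-/- #2 had the highest fibroblast sum and also the highest Hoxc6 (5.33 FPKM, against 0.25 in Pcgf5-/- #1 and 1.32 and 1.56 in WT), Hoxc8 (5.75, against 1.83, 3.54 and 2.37) and Hoxa7 (2.02, against 0.64, 0.57 and 0.67). The most abundant markers in its fibroblast sum were Col1a1 (263 FPKM, against 117 in WT #1) and Col1a2 (142, against 59.8). Lum (1.88, against 4.58 in WT #1) and Prrx1 were instead highest in WT #1. The other listed markers were highest in Pcgf5-/- #2, but Col6a1 (21.9, against 20.2 in WT #1) and Dcn (6.32, against 5.95) only slightly. The sum thus does not give the share of fibroblasts. In Pcgf5-/- #1 and #2, whose fibroblast sums were 206 and 669, Hoxb9 was 7.65 and 7.60 and Hoxc13 was 6.13 and 5.78. In WT #1 and #2, whose sums were 328 and 207, Hoxb9 was higher in the sample with the higher sum (11.6 against 5.79), and Hoxc13 was 7.21 and 7.15. The part of feeder RNA in the Hox values of day 0 was not tested. In bulk samples fewer cells of a type and less RNA per cell cannot be told apart.

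**Figure D2:**
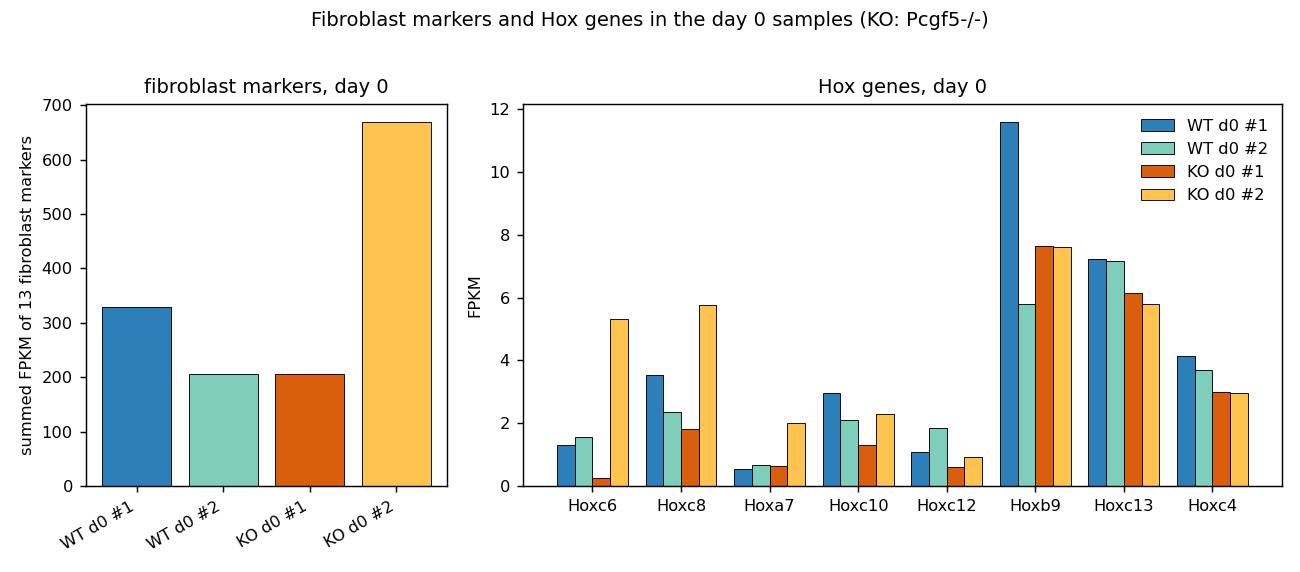
Left, summed FPKM of 13 fibroblast markers in each of the 4 samples of day 0; right, FPKM of 8 Hox genes in the same samples, 1 bar per sample. Pcgf5-/- #2 has the highest marker sum (669) and the highest Hoxc6 and Hoxc8 (5.33 and 5.75 FPKM), while Hoxb9 and Hoxc13 are alike in Pcgf5-/- #1 and #2.

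On day 6, some anterior Hox genes of each of the 4 clusters were lower in Pcgf5-/- cells than in WT, and no Hox gene was called higher. Of the 25 genes tested 6 fell (Hoxa2, Hoxb2, Hoxb3, Hoxc4, Hoxd3 and Hoxd4), against 7.05% of all genes, and 0 rose, against 9.57% of all genes (limma; 0 also at an unadjusted p under 0.05). The 6 genes carry paralog numbers 2, 3 and 4. Hoxb3, Hoxd3 and Hoxd4 had a mean over 1 FPKM only in WT on day 6. They entered the test through the group where they were high, which favours a lower call. Hoxa2, Hoxb2 and Hoxc4 had a mean over 1 FPKM in both genotypes on day 6. The median difference over the 25 genes was -0.27 on the log2(FPKM + 1) scale, against 0.02 over all genes tested. Without overlap between the samples, 9 of the 25 were lower and 1 was higher in Pcgf5-/-, where 28.8% and 33.4% of all genes were, so by this measure alone the share of lower genes is near the background and the share of higher genes is below it.

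Among the 6 called genes, Hoxd3 and Hoxd4 were lowest in proportion to WT. Hoxd3, a gene of the neck vertebrae, stood at 5.40 and 2.82 FPKM in WT and 0.37 and 0.47 in Pcgf5-/-, which is 10.2% of the WT mean. The difference was -1.80 ± 0.24 (SE, n = 2 per group, limma adjusted p = 0.00564). The Cufflinks bounds of the lower WT sample (2.27 to 3.35) and of the higher Pcgf5-/- sample (0.280 to 0.675) lie far apart. Hoxd4, active in the posterior hindbrain, stood at 2.99 and 1.71 in WT and 0.37 and 0.11 in Pcgf5-/-, 10.4% of the WT mean, a difference of -1.41 ± 0.24 (adjusted p = 0.00991). In both genes each Pcgf5-/- sample lay below each WT sample. In the files the locus of Hoxd3 covers that of Hoxd4, with 7182 shared bases, and 1725 exonic bases are common to both in the GENCODE M1 annotation of the same build (mm9), so reads may have been divided between the 2 genes and they are not independent.

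The paralog 2 genes, the most abundant in WT, were also lower. Hoxa2 stood at 27.2 and 38.3 FPKM in WT and 15.0 and 15.2 in Pcgf5-/- (46.1% of the WT mean), a difference of -1.05 ± 0.22 (limma adjusted p = 0.0188). Hoxb2 stood at 28.3 and 41.7 against 8.82 and 16.2 (35.8%), a difference of -1.44 ± 0.37 (adjusted p = 0.0341). Both lay on chromosomes whose genes stood higher in Pcgf5-/-, and relative to the median of the chromosome the differences were -1.42 and -1.82. Hoxb3, expressed in the hindbrain behind the fourth segment, stood at 4.50 and 2.67 against 1.01 and 0.82 (25.5%), a difference of -1.23 ± 0.22 (adjusted p = 0.0119) and of -1.61 relative to chromosome 11. Hoxc4, a gene of the cervical spinal cord, stood at 6.96 and 3.06 against 2.00 and 0.82 (28.2%), a difference of -1.28 ± 0.34 (adjusted p = 0.0388). In all 4 genes the genotypes did not overlap.

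**Figure D3:**
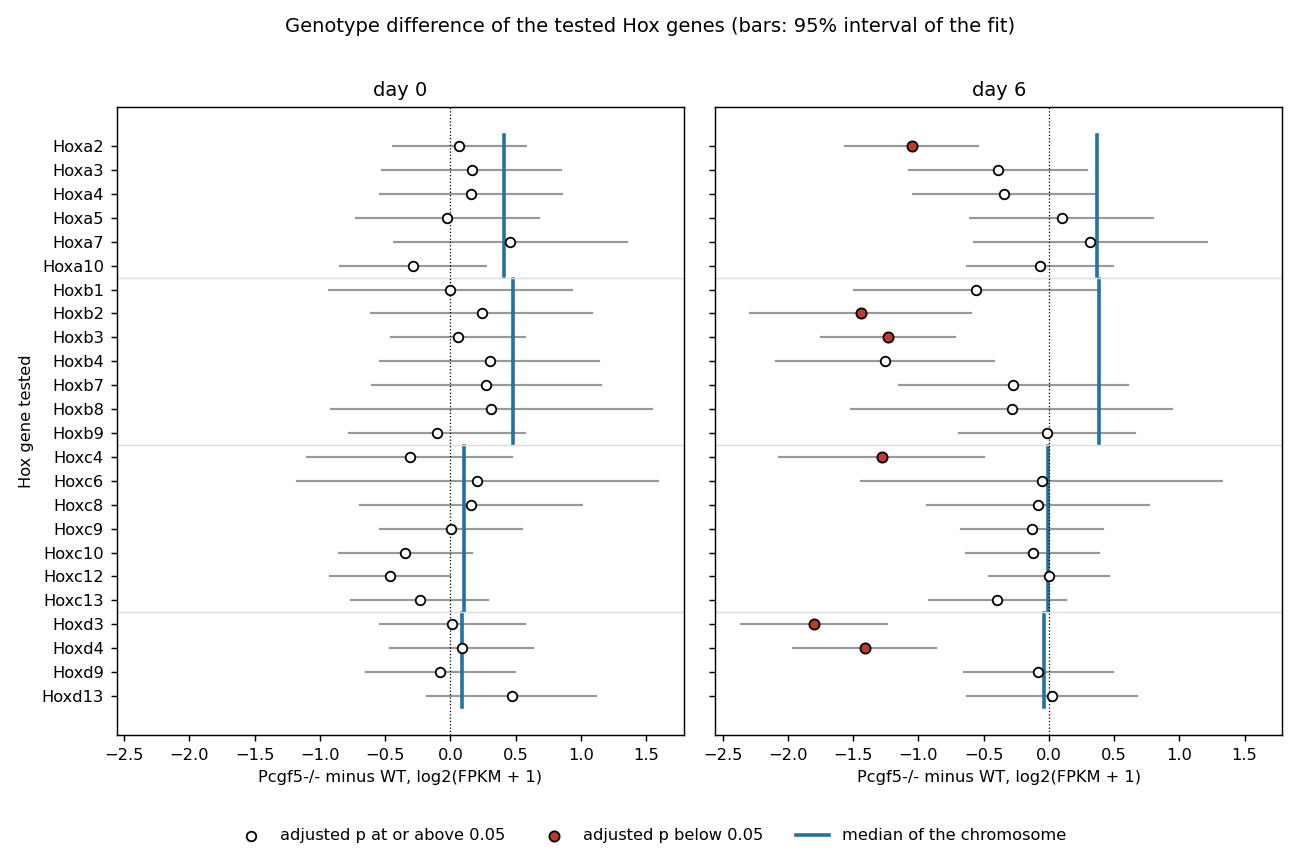
Difference between Pcgf5-/- and WT for 24 of the 25 tested Hox genes at day 0 (left) and day 6 (right), on the log2(FPKM + 1) scale, with the 95% interval of the limma fit, and the median of all tested genes of the chromosome as a vertical line. Filled points passed an adjusted p of 0.05: none at day 0, and on day 6 Hoxa2, Hoxb2, Hoxb3, Hoxc4, Hoxd3 and Hoxd4, from -1.80 to -1.05.

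The other anterior genes and Hoxa5 did not pass. Hoxb4, known from blood stem cells, was 11.7 and 4.58 FPKM in WT and 2.82 and 2.26 in Pcgf5-/-, a difference of -1.26 ± 0.36 (limma adjusted p = 0.0504). It passed when each sample was centred by chromosome, with 7 genes called. Hoxb1 was 1.48 and 6.03 in WT against 1.67 and 1.99, overlapping, with a 95% interval of the difference from -1.50 to 0.37. Hoxa3 was 12.1 and 11.4 against 12.1 and 6.26 (interval -1.07 to 0.29), Hoxa4 3.07 and 1.72 against 2.43 and 1.00, and Hoxa5, a gene of lung and neck development, 3.12 and 1.68 against 3.73 and 1.67 (interval -0.60 to 0.80). In these last genes the samples overlapped. Relative to the median of their chromosomes, the differences of Hoxb4, Hoxb1, Hoxa3, Hoxa4 and Hoxa5 were -1.64, -0.94, -0.76, -0.71 and -0.27. Hoxa3 spans the loci of Hoxa4, Hoxa5 and Hoxa6 in the files and shares 267 exonic bases with Hoxa2, so its value is uncertain in the same way as that of Hoxd3.

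The tested genes of higher paralog number gave little to compare on day 6. Hoxb8 was 4.07 and 0.40 FPKM in WT and 1.51 and 0.90 in Pcgf5-/-, Hoxb7 1.52 and 0.32 against 0.66 and 0.37, and Hoxa7 0.88 and 0.07 against 1.32 and 0.34, all overlapping. WT #1 was the higher WT sample in each. Hoxb7 and Hoxb8 share 1069 exonic bases in the GENCODE M1 annotation, so their values are not independent. Hoxb9, Hoxc6, Hoxc8, Hoxc9, Hoxc10, Hoxc12, Hoxc13, Hoxd9, Hoxd13 and Hoxa10 were at or below 0.99 FPKM in all 4 samples of day 6, and 0 of them passed. Of these, Hoxc13 (0.99 and 0.28 against 0.22 and 0.21, interval of the difference -0.92 to 0.13) and Hoxc10 (0.12 and 0.10 against 0.00 and 0.04, interval -0.63 to 0.39) were lower in Pcgf5-/- without overlap.

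Seen by cluster, the summed FPKM on day 6 fell furthest below WT in Hoxd. Hoxd summed to 10.6 and 4.89 FPKM in WT and 1.94 and 0.836 in Pcgf5-/- (17.9% of the WT mean), Hoxc to 8.97 and 4.06 against 2.52 and 1.43 (30.4%), Hoxb to 53.1 and 56.5 against 17.3 and 23.8 (37.5%) and Hoxa to 54.4 and 61.0 against 47.9 and 32.2 (69.4%). All Pcgf5-/- sums lay below all WT sums in each cluster. The 39 genes together gave 127 and 126 in WT and 69.7 and 58.2 in Pcgf5-/-. By paralog number, group 2 gave 55.5 and 80.0 against 23.8 and 31.4, group 3 gave 22.0 and 16.9 against 13.5 and 7.55, and group 4 gave 24.8 and 11.1 against 7.63 and 4.20. Paralog group 1 is not shown, so these groups do not stand for all anterior genes. These sums are given as a description, with no test.

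**Figure D4:**
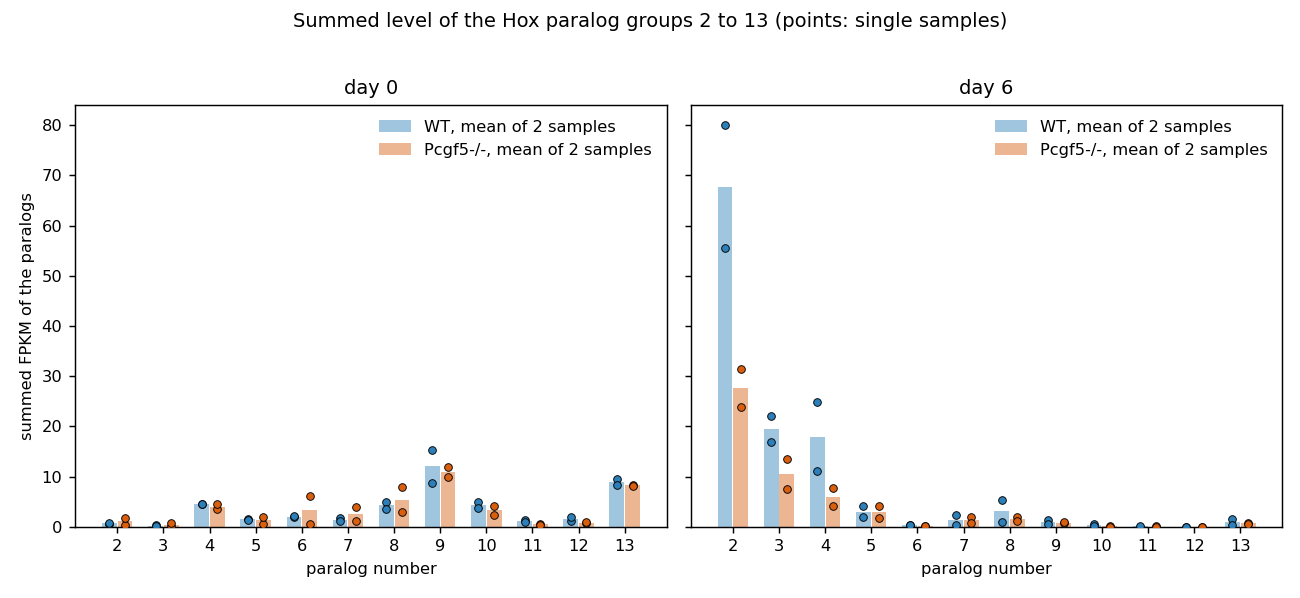
Summed FPKM of the Hox genes of paralog numbers 2 to 13 at day 0 (left) and day 6 (right); bars are means of 2 samples and points are single samples, WT in blue and Pcgf5-/- in orange. On day 6 groups 2, 3 and 4 are lower in Pcgf5-/- without overlap (group 2: 23.8 and 31.4 against 55.5 and 80.0).

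These 6 calls rest on small groups. Without Pcgf5-/- #1 of day 6 only Hoxd3 and Hoxd4 passed, and without Pcgf5-/- #2 only Hoxb2 and Hoxd3. Hoxd3 passed under each of the 18 alternatives in which it was tested.

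Most anterior Hox genes also rose between day 0 and day 6 in Pcgf5-/- cells. In them 9 genes rose (among them Hoxa2 to Hoxa5 and Hoxb1 to Hoxb4), where 21.9% of all genes rose, and 9 fell, where 10.4% of all genes fell. As in WT, those that fell passed the FPKM minimum through day 0 only, and the named ones that rose through day 6 only. The rises of Hoxb1, Hoxb3 and Hoxb4 were not called with a pseudocount of 2 or with quantile normalization. That of Hoxa4 was not called with quantile normalization. With no filter on low values, the rises of Hoxa4, Hoxb1 and Hoxb4 were not called. The Hoxd genes are the ones that rose in WT and did not pass here. Hoxd3 went from 0.02 and 0.05 FPKM to 0.37 and 0.47 in Pcgf5-/-, a difference of 0.46 ± 0.24 (limma adjusted p = 0.186), against 0.02 and 0.02 to 5.40 and 2.82 in WT (2.27 ± 0.24). Hoxd4 went from 0.10 and 0.34 to 0.37 and 0.11 in Pcgf5-/-, a difference of 0.03 ± 0.24, against 0.06 and 0.24 to 2.99 and 1.71 in WT (1.52 ± 0.24). Tested as an interaction (the genotype difference of day 6 minus that of day 0), Hoxd3 passed at -1.82 ± 0.34 (limma adjusted p = 0.0384) and was the only one of the 25, where 1.75% of all genes were lower. Hoxd4 gave -1.50 ± 0.34 (adjusted p = 0.0545), Hoxb3 -1.29 ± 0.32 (adjusted p = 0.0657) and Hoxa2 -1.12 ± 0.31 (adjusted p = 0.0889). The comparisons of genotypes and of days share samples, so their agreement in a gene is not independent.

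The genes that fell in Pcgf5-/- cells were Hoxa10, Hoxb9, Hoxc8, Hoxc9, Hoxc10, Hoxc12, Hoxc13, Hoxd9 and Hoxd13. Hoxb9 fell from 7.65 and 7.60 FPKM to 0.49 and 0.86, a change of -2.38 ± 0.29, and Hoxc13 from 6.13 and 5.78 to 0.22 and 0.21, a change of -2.52 ± 0.23. Hoxd13, the digit gene at the end of the Hoxd cluster, fell from 1.56 and 2.09 to 0.43 and 0.03, while in WT it was 1.48 and 0.66 against 0.43 and 0.00 (limma adjusted p = 0.0516). Without Pcgf5-/- #2 of day 0, the sample with the highest fibroblast sum, 11 of the 18 calls remained, among them those of Hoxb9, Hoxc8, Hoxc9, Hoxc10 and Hoxc13. Leaving out either Pcgf5-/- sample of day 6 also left 11.

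At day 0 no Hox gene was called different between the genotypes. Of 25 tested, 0 passed in limma, where 0.333% of all genes did, and 1 had an unadjusted p under 0.05, Hoxc12 (1.11 and 1.87 FPKM in WT, 0.63 and 0.95 in Pcgf5-/-). The differences ranged from -0.46 to 0.47 on the log2(FPKM + 1) scale, with a median of 0.07, against 0.11 over all genes. The day 0 medians of chromosomes 6 and 11 were higher, at 0.41 and 0.48. The tested Hoxa and Hoxb genes except Hoxa7 lay below the median of their chromosome, down to -0.70 in Hoxa10. Without overlap, 3 of the 25 were lower (Hoxc4, Hoxc12 and Hoxc13) and 1 higher (Hoxd13). Of all 13214 genes tested, 1763 were lower and 4568 higher in this way. The intervals set the limit of what these samples could show: Hoxb9 was 11.6 and 5.79 in WT against 7.65 and 7.60 (interval -0.77 to 0.58), Hoxc13 7.21 and 7.15 against 6.13 and 5.78 (interval -0.76 to 0.29), and Hoxc6 had the widest, from -1.18 to 1.59. Hoxc4 was 4.15 and 3.71 in WT against 2.99 and 2.95 in Pcgf5-/-, already lower without overlap (interval -1.10 to 0.47). Most anterior genes were low in both genotypes: Hoxa2 was 0.13 and 0.21 against 0.07 and 0.39, Hoxb2 0.41 and 0.58 against 0.29 and 1.43, and Hoxd3 0.02 and 0.02 against 0.02 and 0.05. In both Hoxa2 and Hoxb2 the highest value was that of Pcgf5-/- #2.

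Of 5 tested non-coding rows inside the clusters, 1 was called lower in Pcgf5-/- on day 6 and 0 higher. Over all genes tested 7.05% were called lower and 9.57% higher. Haglr, a long non-coding RNA of the Hoxd cluster, was 2.74 and 1.25 FPKM in WT and 0.318 and 0.297 in Pcgf5-/- on day 6, a difference of -1.15 ± 0.24 (limma adjusted p = 0.0174), and rose over the 6 days in WT (1.48 ± 0.24). Haglr passed the FPKM minimum through WT of day 6 only, which favours both of these calls. Hotairm1, a non-coding RNA of the anterior end of the Hoxa cluster, was 10.52 and 10.98 in WT against 5.26 and 5.31 in Pcgf5-/-, without overlap, a difference of -0.90 ± 0.34 (adjusted p = 0.110). Hoxaas2 was 1.12 and 3.35 against 0.842 and 1.56, and Mira 3.67 and 0.653 against 3.95 and 1.74, both overlapping. Gm53 of the Hoxb cluster went the opposite way over time, from 5.03 and 3.03 at day 0 to 0.587 and 0.131 on day 6 in WT. The 6 microRNA rows inside the clusters, Mir10a, Mir10b, Mir196a-1, Mir196a-2, Mir196b and Mir615, are listed at 0 in all samples, and libraries of polyadenylated RNA are not made to capture mature microRNAs.

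Of 45 tested genes within 500000 bases of the clusters, 10 were higher and 2 lower in Pcgf5-/- on day 6, where 9.57% and 7.05% of all genes were, with a median difference of 0.22. Beside Hoxa 3 of 4 were higher (Skap2, 0.98 ± 0.12, Hibadh, 0.74 ± 0.17, and Tax1bp1, 0.49 ± 0.12), and beside Hoxb 7 of 16, with 0 lower at either cluster. Beside Hoxc 2 of 23 were lower (Hnrnpa1 and Zfp385a) and 0 higher, and beside Hoxd 0 of 2 passed. All 10 higher genes lie on chromosomes 6 and 11, whose median differences on day 6 were 0.37 and 0.38. The share over all genes is thus not their background. Hoxa2, Hoxb2 and Hoxb3 were lower at clusters beside which no tested gene was called lower. A part of the surrounding region in these differences was not tested.

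The partners and inducers of the Hox genes were measured in the same samples. Over all genes tested, 7.05% were called lower and 9.57% higher in Pcgf5-/- on day 6. Of 9 TALE cofactors, 6 were lower in Pcgf5-/- on day 6 and 0 higher, among them Meis1 (38.1 and 39.7 FPKM in WT, 18.9 and 21.6 in Pcgf5-/-), Meis2 (57.2 and 67.1 against 25.1 and 31.5), Meis3 (22.4 and 23.7 against 7.65 and 12.4), Pbx2 (47.0 and 65.0 against 29.3 and 37.5) and Pknox2 (10.9 and 17.5 against 6.87 and 7.02). Their differences ran from -1.16 ± 0.29 for Meis3 to -0.72 ± 0.19 for Pbx2, and the median of the list was -0.73 against 0.02 over all genes. In the cofactors named here the WT and Pcgf5-/- samples did not overlap. Over the 6 days 8 of the 9 rose in each genotype, where 34.2% of all genes rose in WT and 21.9% in Pcgf5-/-.

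Of 15 tested genes of the retinoic acid, Cdx, Fgf and Gdf11 inputs, 5 were lower on day 6 and 0 higher. In the same comparison 7.05% of all genes were lower and 9.57% higher. The median difference of the list was -0.05, against 0.02 over all genes, so the list did not shift as a whole. Rarb, a retinoic acid receptor that is itself a retinoic acid target, was 8.14 and 7.25 FPKM in WT against 1.24 and 1.43, a difference of -1.90 ± 0.19 (limma adjusted p = 0.00377). Crabp2, which carries retinoic acid to the nucleus, was 365 and 521 against 90.3 and 149 (-1.90 ± 0.30), and Crabp1, its cytoplasmic relative, 850 and 949 against 348 and 452 (-1.18 ± 0.24). Rxra (-0.73 ± 0.18) and Gdf11 (-1.05 ± 0.29) were the others. Among those that did not pass, the retinoic acid receptor Rarg was 14.9 and 9.49 against 39.59 and 19.05, and Dhrs3, an enzyme that lowers retinoic acid, 2.57 and 3.40 against 6.31 and 5.25. The enzyme Aldh1a2, which makes retinoic acid in the embryo, and Wnt3a, the Wnt gene of the list, were under 1 FPKM in all samples and not tested, and Cdx1, an activator of Hox genes, was 5.45 and 6.26 in WT and 5.56 and 18.5 in Pcgf5-/- at day 0 and at or below 0.212 on day 6.

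Of 9 tested hindbrain and motor neuron genes, 3 were lower and 0 higher on day 6, where 7.05% and 9.57% of all genes were. The same shares apply to the marker counts below. The lower genes included Isl1 (2.46 and 3.42 FPKM in WT against 0.758 and 1.18) and Epha4 (24.6 and 24.2 against 13.8 and 12.1). Isl1 passed the FPKM minimum through WT of day 6 only, which favours a lower call. Gbx2 was 13.7 and 8.30 against 30.4 and 16.1 and did not pass. Cell type markers moved with the Hox genes: the summed FPKM of 7 neural progenitor markers was 283 and 286 in WT and 94.9 and 111 in Pcgf5-/- on day 6, of which 6 of 7 were lower, and that of 7 naive pluripotency markers was 94.7 and 46.1 against 310 and 286, of which 6 of 7 were higher. Of 6 tested anterior neural markers 1 was higher (Hesx1) and 0 lower, and of 4 tested mesoderm markers 1 was higher (Tcf15). Their part in the lower Hox level was not tested, and a smaller share of neural cells cannot be told apart from a lower Hox level in each neural cell.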

How the data were processed

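RNA-seq of 8 samples, 2 in each of 4 groups (WT and Pcgf5-/- mESCs at day 0 and day 6), was analysed. Groups and sample numbers come from the sample titles. Per the submitters' processing notes and the study's methods, the authors removed identical duplicate reads, aligned with TopHat2 2.0.4 to mm9 and computed the deposited FPKM values with Cufflinks 2.1.1, which also gives a lower and an upper bound for each. The annotation and the use of strand are not given in the sources used here. Removing duplicates lowers abundant transcripts, and Cufflinks divides reads between overlapping genes. FPKM is already scaled for library size and length.

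Values were analysed as log2(FPKM + 1), which understates the ratio of FPKM of low genes. The 13214 of 24849 genes whose mean in any group exceeded 1 FPKM entered 1 fit of limma 3.58.1 (R 4.3.3) over all 8 samples, with a mean per group, a variance trend and no replicate block. The Benjamini-Hochberg adjustment ran over all these genes, and an adjusted p under 0.05 counted as a call. The script was tested on simulated data with known changes. Tables and plots were made with Python 3.11.15, pandas 2.3.3, numpy 2.4.6 and matplotlib 3.10.9. The Hox genes, the gene lists and the alternatives were chosen with earlier results of these data known. Named genes are the members with a group mean over 1 FPKM, those called getting full statistics, the rows inside the clusters, called genes within 500000 bases, and called genes of the lists, with a few others chosen after their values were seen. Some genes are in the counts and sums but are not reported here by name. Sequences are from RefSeq (GRCm38.p6), and coordinates of the files (mm9) were not mixed with them. Alternatives were other pseudocounts and FPKM minimums, quantile normalization, centring by chromosome, replicate blocks, no variance trend, only the compared groups, and leaving out each sample.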

Additional observations from a re-analysis of the deposited data

Results flagged for a closer look

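Hoxd3 is the Hox gene whose genotype effect differed between the days by a test of that difference. The difference on day 6 minus that at day 0 was -1.82 on the log2(FPKM + 1) scale (SE 0.34, limma adjusted p = 0.0384). At day 0 it was at or below 0.05 FPKM in all 4 samples, and on day 6 it stood at 5.40 and 2.82 FPKM in WT against 0.37 and 0.47 in Pcgf5-/-. It passed the FPKM minimum through WT of day 6 only. The call was lost under 8 of 17 alternatives and the direction under none of them.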

How the results depend on the processing

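Of the Hox genes called between the genotypes on day 6 (6), 3 were called with a pseudocount of 0.1 (Hoxc4, Hoxd3 and Hoxd4), 3 with a mean FPKM over 5 (8 genes tested), and 2 to 5 when 1 sample was left out. At day 0 the count was 0 under every alternative run. In WT over the 6 days it was 19, and 7 with a mean FPKM over 5, the cause being the fewer genes tested, and 18 to 20 when 1 sample was left out. In Pcgf5-/- it was 18, and 6 with a mean FPKM over 5 and 11 to 19 when 1 sample was left out. For the interaction of genotype and day it was 1, and 0 with a pseudocount of 0.1, 0 with no filter and 0 with a mean FPKM over 5 (Hoxd3 not tested), and 0 to 2 when 1 sample was left out. With the replicate number as a block it was 2 (Hoxb2 and Hoxd3), and 4 with a block for each day (Hoxb2, Hoxb3, Hoxd3 and Hoxd4). The replicate block left the count of day 6 at 6, and at 7 with a block for each day. Same-numbered WT and Pcgf5-/- samples deviated together with a correlation of 0.10 at day 0 and 0.39 on day 6, over 13214 genes, but the labels give the numbers no meaning and each day holds only 2 pairs, so they were not taken as pairs. No called Hox gene changed direction under any alternative. Where other counts moved, the cause was not tested. With 2 samples per group and no fragment counts, the depth behind genes near or under 1 FPKM is known only through the Cufflinks bounds. The day 6 calls of Hoxa2, Hoxb2, Hoxb3, Hoxc4 and Hoxd4 depend on single samples, as does the result of Hoxb4 close to the threshold. With no filter on low values, Hoxb2 and Hoxc4 were not called between the genotypes on day 6.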
